A study of Mus musculus with 27 samples.

Results

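Formative pluripotent stem cells (fPSCs) of the CMT line after 10, 20 and 30 passages (P10, P20 and P30) were compared with mouse embryonic stem cells (mESCs) by bulk RNA-seq. The libraries were taken by their labels, 3 of fPSCs and 2 of mESCs, which makes 5 of the 19 libraries in the expression table. Of the 23604 genes in this table, 12316 reached 1 FPKM (fragments mapped per kilobase of transcript, scaled to the mapped fragments of the library) in at least 2 of the 9 libraries fitted together and were tested.

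The study derived fPSCs from naive mESCs and propagated them as hollow spheres, and the comparison asks how far their transcriptome had moved from that of the cells they came from. Both groups were wild type (WT), and the study names CMTI-1 among its mESC lines. The labels of these 5 libraries do not name the line. mESCs were grown without feeder cells on gelatin in N2B27 medium with 1 µM PD035901 (a MEK inhibitor), 3 µM Chir99021 (a GSK3 inhibitor) and 1000 units/ml hLIF. For fPSCs, grown inside Matrigel, N2B27 held bFgf2 at 12 ng/ml, Activin A at 20 ng/ml and XAV939 at 5 µM. XAV939 is a tankyrase inhibitor that lowers β-catenin. Another group, EpiLCs (epiblast-like cells, 2 libraries), received the same doses of Activin A and bFgf2 with KSR and without XAV939. EpiLCs served as a second reference. A further group, EpiSCs (epiblast stem cells, 2 libraries), had Activin A, bFgf2 and XAV939 at the doses of the fPSCs. The study grew EpiSCs on mouse feeder cells with KSR. They were fitted together with the other groups but not tested against fPSCs. The 3 passages are 1 line at 3 times, and nothing says that the 2 mESC libraries came from separate cultures. The p-values thus measure only the spread between libraries of the same group, pooled over the 9 fitted together, EpiLCs and EpiSCs among them. Medium, matrix and time in culture changed together between the groups and cannot be told apart.

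Naive pluripotency, the state of the preimplantation epiblast, is held in mESCs by LIF-STAT3 signalling and by low ERK activity, and rests on factors such as Esrrb, Klf4 and Tfcp2l1. The formative state follows implantation: these factors are switched off, Otx2, Pou3f1 and the de novo DNA methyltransferases come on, and the cells become able to respond to signals for germ cells and germ layers. Fgf5, a secreted growth factor, marks the postimplantation epiblast, and Zfp42 (Rex1) marks naive cells.

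The 3 genes that mark the comparison separated the groups in every library. Fgf5, on chr5:98683203-98706049 of mm9, had 0.0558 and 0.0191 FPKM in the mESCs and 107, 85.2 and 72.9 FPKM at P10, P20 and P30. The serine/threonine kinase gene Pim2 (chrX:7455388-7460558) had 9.29 and 7.02 FPKM in the mESCs and 864, 882 and 1913 FPKM in the fPSCs, highest at P30. Zfp42 (chr8:44380422-44392363) had 347 and 384 FPKM in the mESCs and 0.0179, 0 and 0 FPKM in the fPSCs. No library of either group overlapped the other for these genes. The same held for 74.5% of all genes tested, so a lack of overlap alone does not set these markers apart. Among the other markers fixed for mESCs, Nanog, Klf2, Klf4, Esrrb, Tfcp2l1, Nr5a2 and Dppa5a were all higher in both mESC libraries, and among those for fPSCs, Otx2, Pou3f1, Dnmt3b and Zic2 were all higher in the 3 fPSC libraries. Pou5f1, Sox2 and Sall4, which both states express, were above 20 FPKM in all 5 libraries.

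Summed FPKM were 393821 and 414727 in the mESCs and 323465 to 341577 in the fPSCs, and 10034 to 10907 genes reached 1 FPKM. Read counts are not part of the table, so depth is unknown. Ribosomal protein genes held 20.4% and 21.5% of the summed FPKM in mESCs against 13.2% to 13.9% in fPSCs. Across the genes tested, Pearson's r on log2(FPKM + 1) was 0.976 between the mESC libraries, 0.983 to 0.989 among the fPSC libraries and 0.792 to 0.806 between groups. These values are across genes, which are not independent replicates.

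More genes were lower than higher in fPSCs. Of the genes tested, 6382 (51.8%) passed the threshold, a Benjamini-Hochberg adjusted p under 0.05 in limma with a fold change of at least 1.5. Of these, 2449 (19.9% of those tested) were higher and 3933 (31.9%) were lower in fPSCs. The median log2 fold change of all genes tested was -0.17. Scaling the libraries to the same upper quartile moved this median to -0.04 and the counts to 2898 higher and 3374 lower, so list medians are to be read against -0.17. List counts are to be read against 19.9% higher and 31.9% lower, or 9.94% and 15.9% in the test against EpiLCs. As a description, 9174 genes (74.5%) tested did not overlap between the 2 groups.

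Of the 12 genes with the largest falls (with a group mean of at least 10 FPKM), 6 are on the list of naive pluripotency genes, namely Dppa5a, Zfp42, Esrrb, Tdh, Klf2 and Dppa3. Dppa5a, an RNA-binding protein of naive cells, had 1805 and 2532 FPKM in mESCs and 0, 0.109 and 0.756 FPKM in fPSCs, and fell by 10.74 on the log2 scale (standard error, SE, 0.34, limma adjusted p = 3.44e-08). Tdh, threonine dehydrogenase, which feeds threonine into one-carbon metabolism in mESCs, had 272 and 303 FPKM in mESCs and 1.46, 0.663 and 0.328 FPKM in fPSCs. Its fall of 7.36 (SE 0.25, limma adjusted p = 5.15e-08) left the highest fPSC value far below the lowest mESC value. Spp1 (osteopontin) fell by 7.03 and Tuba3a, a testis-type alpha tubulin, by 7.94. Dppa3 (Stella) had 56.4 and 194 FPKM in the mESCs, which differed from each other more than most genes did, and was listed at 0 in all 3 fPSC libraries.

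The 12 largest rises included growth factors, kinases and a cytoskeletal gene. Fgf8, a growth factor of the gastrulating embryo, had 0.33 and 0 FPKM in mESCs and 75.1, 102 and 85.3 FPKM in fPSCs, a rise of 6.25 on the log2 scale (SE 0.30, limma adjusted p = 3.01e-07). Pkdcc, a secreted tyrosine kinase, had 0.102 and 0.0176 FPKM in mESCs and 50.7, 47.4 and 41.8 FPKM in fPSCs (log2 fold change 5.49). Zyx (zyxin), a focal adhesion protein that binds actin regulators, had 2.0 and 1.05 FPKM in mESCs and 104, 83.5 and 125 FPKM in fPSCs (5.39). Myc had 0.829 and 0.669 FPKM in mESCs and 55.4, 68.6 and 63.8 FPKM in fPSCs. Cntfr, a receptor subunit for ciliary neurotrophic factor, rose by 5.12, Tspan7 by 5.33, Vrtn by 5.43, Tmem59l by 5.19 and Psors1c2 by 5.48.

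**Figure D1:**
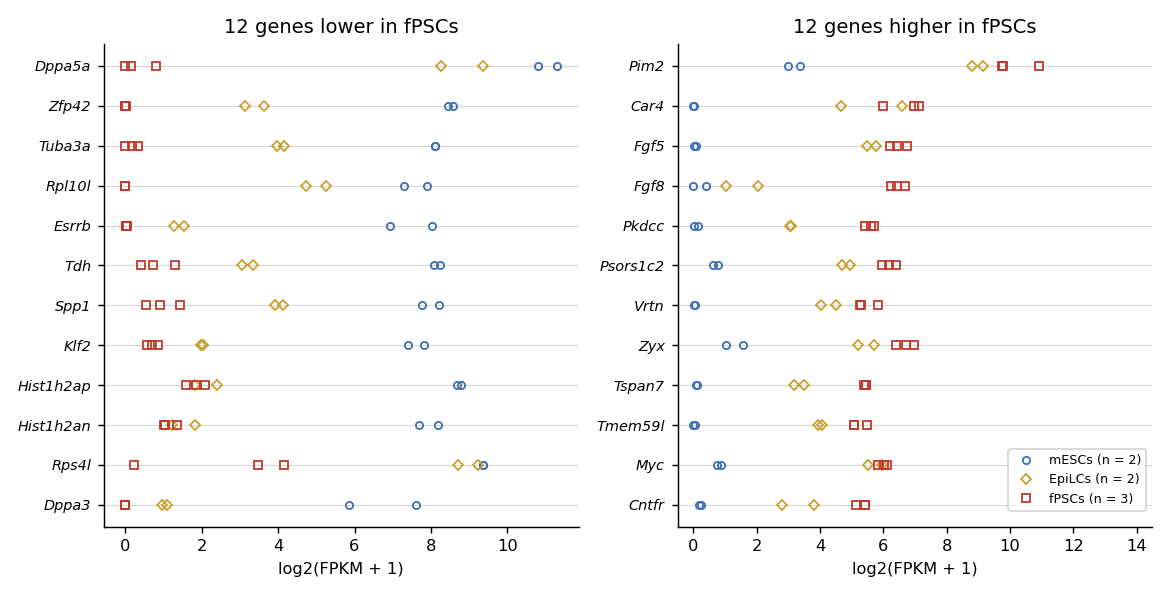
Level in each library, as log2(FPKM + 1), of the 12 genes with the largest fall (left) and the 12 with the largest rise (right) in fPSCs against mESCs, with a group mean of at least 10 FPKM. Circles are mESCs (n = 2), diamonds EpiLCs (n = 2) and squares fPSCs at P10, P20 and P30 (n = 3); the fPSCs and mESCs do not overlap for any of the 24 genes, which the choice of genes fixed.

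Several of these genes had also moved beyond EpiLCs. Fgf8 was 4.93 higher in fPSCs than in EpiLCs on the log2 scale (SE 0.30, limma adjusted p = 7.67e-06), where it had 3.11 and 1.03 FPKM. Dppa5a kept 307 and 654 FPKM in EpiLCs, and the fPSCs were lower than these by 8.49 (limma adjusted p = 1.32e-06). Of the 12 falls, 9 were lower in fPSCs than in EpiLCs past the threshold, against 15.9% of all genes tested, and of the 12 rises 10 were higher, against 9.94%. Both comparisons use the same fPSC libraries, and the genes were chosen for extreme values in them. The choice thus favours an excess over all genes tested, and the counts are only a description.

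All 24 genes of the naive pluripotency list were tested and all 24 were lower, with a median log2 fold change of -5.02. Among all genes tested 31.9% were lower. Among the transcription factors, Esrrb had 262 and 121 FPKM in mESCs and 0.0231, 0.0176 and 0.0147 FPKM in fPSCs, Tfcp2l1 had 114 and 65.4 against 0.784, 0.365 and 0.365 FPKM, and Tbx3 had 47.4 and 29.3 against 0.138, 0.124 and 0.129 FPKM. All 3 were under 1 FPKM in every fPSC library. Klf4 fell by 5.70, Nr5a2 by 4.77, Prdm14 by 4.73 and Nr0b1 by 4.96. In all, 17 of the 24 genes were under 1 FPKM in every fPSC library.

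Nanog, a homeobox factor of both naive and postimplantation epiblast, was lower but still expressed. It had 284 and 345 FPKM in mESCs and 75.4, 66.4 and 82.8 FPKM in fPSCs, and fell by 2.06 (SE 0.16, limma adjusted p = 7.16e-06). EpiLCs had 8.6 and 8.0 FPKM, so that fPSCs were higher than EpiLCs by 3.02 (SE 0.16, limma adjusted p = 4.22e-06). It was the 1 gene of this list above EpiLCs past the threshold, while 12 were below. Fgf4, the naive epiblast's own FGF ligand, had 97.7 and 92.5 FPKM in mESCs, 58.6 and 58.9 FPKM in EpiLCs and 5.52, 6.54 and 10.2 FPKM in fPSCs, below both references (limma adjusted p = 1.21e-06 and 2.54e-05).

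Genes that respond to LIF through STAT3, and the receptor itself, were lower. Of 16 genes on the list 14 were tested, 11 were lower, none was higher and the median log2 fold change was -2.19. The lower genes are 78.6%, against 31.9% of all genes tested. The feedback inhibitor Socs3 had 79.3 and 66.1 FPKM in mESCs and 1.98, 2.18 and 1.53 FPKM in fPSCs (log2 fold change -4.67, SE 0.20, limma adjusted p = 1.50e-07). Stat3 itself had 23.2 and 17 FPKM in mESCs and 2.88, 3.41 and 2.45 FPKM in fPSCs. The receptor chains Lifr and Il6st fell by 2.08 and 1.64. The kinases Pim1 and Pim3 fell by 3.85 and 2.30, whereas Pim2 of the same family rose by 6.97. Junb and Ier2 did not pass (-0.61 and -0.28).

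The formative list moved the other way, with 22 of 23 genes higher, none lower and a median of 3.33. The higher genes are 95.7%, against 19.9% of all genes tested. Pou3f1 (Oct6), a POU factor of the early postimplantation epiblast, had 0.467 and 0.149 FPKM in mESCs and 34, 40 and 35.4 FPKM in fPSCs, and Sox3 had 1.03 and 0.22 against 21.7, 28.1 and 17 FPKM. Lef1, a nuclear effector of Wnt signalling, had 1.52 and 1.26 FPKM in mESCs and 44.7, 44.6 and 54.7 FPKM in fPSCs. Cdh2 (N-cadherin) had 0.45 and 0.101 FPKM in mESCs and 6.48, 4.76 and 2.72 FPKM in fPSCs, lowest at P30. Epha2 did not pass (log2 fold change 0.72, SE 0.34, limma adjusted p = 0.0994), but passed when P30 was left out.

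fPSCs and EpiLCs differed within this list. Pou3f1 was lower in fPSCs than in EpiLCs, which had 111 and 95.2 FPKM, by 1.47 (limma adjusted p = 5.09e-04), and Dnmt3a, at 20, 21.4 and 18.9 FPKM in fPSCs, was lower than the 117 and 107 FPKM of EpiLCs by 2.42 (limma adjusted p = 8.62e-04). Dnmt3b did not pass in that comparison (-0.52, SE 0.16). Pou3f1 and Dnmt3a are among the 3 of 23 genes that were lower than in EpiLCs, while 8 were higher. The median of the list in that test was 0.49, against -0.09 for all genes tested. Of all genes tested, 9.94% were higher and 15.9% lower, so the list leaned to higher values in fPSCs.

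ERK output genes, induced by FGF through MEK, rose in 14 of 19 cases and fell in 2, with a median of 1.94. These are 73.7% and 10.5%, against 19.9% and 31.9% of all genes tested. The count that fell was 0 with no filter on low values and without mESCs replicate 1. The phosphatase Dusp6, which dampens ERK, had 2.39 and 2.58 FPKM in mESCs and 59.3, 43.9 and 29.6 FPKM in fPSCs (log2 fold change 3.65, SE 0.27, limma adjusted p = 4.34e-06). Its level was lower at each later passage. Dusp4 had 0.803 and 0.104 FPKM in mESCs and 22.9, 21.2 and 12.7 FPKM in fPSCs, and the feedback inhibitor Spry4 had 0.555 and 0.151 against 20.2, 19.4 and 18.1 FPKM. Spred1, Spred2 and Egr1 rose by 2.31, 2.77 and 3.29. Ier3 and Fos were lower (-1.82 and -0.62). The call for Fos was lost in 6 of the 13 alternatives.

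**Figure D2:**
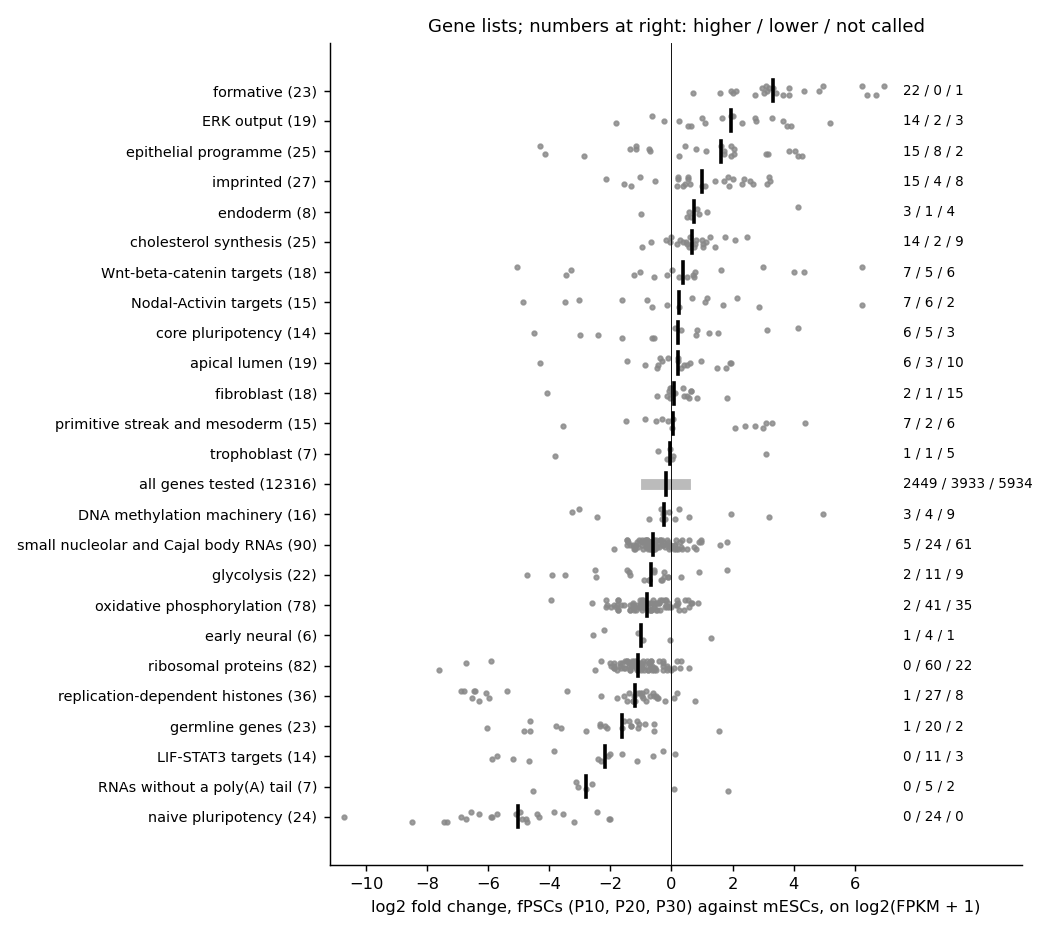
Log2 fold change of every tested gene of each list, fPSCs against mESCs on log2(FPKM + 1), with a black bar at the list's median and the number of genes tested in brackets. For all genes tested the grey bar spans the interquartile range. The numbers at the right count genes higher, lower and not called. Naive (-5.02) and formative (3.33) genes have the medians furthest from that of all genes (-0.17).

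Promoters of these genes carried different marks in fPSCs. DNA methylation by bisulfite sequencing was also measured at P10, as a methylated fraction from 0 to 1 per 100 bp window, and H3K4me3, a histone mark of active promoters, as RPKM (reads per kilobase, scaled to the reads of the library) per 100 bp bin. Values were averaged within 1000 bp of the start site for the 10765 tested genes with 1 annotated position. No mESC data of this kind were analysed here, so the values describe fPSCs alone. The study itself compared these marks with published mESC data and reported naive mESCs as globally hypomethylated. The labels do not name the line, and the depth behind the fractions is unknown.

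Among genes that were lower by at least 4 on the log2 scale, 65 of 109 with enough windows (59.6%) had a methylated fraction of 0.5 or more, against 13.8% of all genes tested. Among genes higher by at least 4, this was 1 of 41 (2.44%). The median fraction was 0.71 for the first group and 0.0545 for the second, and the median H3K4me3 was 1.24 and 5.35 RPKM, against 4.72 RPKM for all genes tested. CpG density moved with these values, with a median of 3.2 CpGs per 100 bp in the first group, 5.49 in the second and 6.19 in all genes tested, and its part in them was not tested. Among genes under 1 FPKM in all 3 fPSC libraries, the share at 0.5 or more was 66.7% of 78 for those lower by 4 or more, 49.6% of 841 for other lower genes and 37.3% of 581 for those not called, at 2.95, 3.7 and 4.5 CpGs per 100 bp. Averaged within 2500 bp, the share was 76.4% for genes lower by at least 4, 9.76% for those higher and 50.4% for all genes tested. H3K27me3, a mark of Polycomb repression, had a median of 0.579 RPKM in genes lower by at least 4, 0.225 RPKM in those higher and 0.224 RPKM in all genes tested, while genes under 1 FPKM in fPSCs that were not called had 1.03 RPKM.

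Naive genes that fell had promoters of both high and low methylated fraction. Zfp42 (0.86), Esrrb (0.817), Nr5a2 (0.833), Tcl1 (0.955), Tdh (0.826), Dppa3 (0.921) and Dppa5a (0.881) had high methylated fractions. Klf4 (0.0133) and Klf2 (0.135), whose FPKM were under 1 in every fPSC library too, had low ones. Nanog lay between (0.269). Of the genes that rose, Fgf5 (0.066), Otx2 (0.012), Pou3f1 (0.00308) and Fgf8 (0.0269) were low, and Car4 (0.354) and Tspan7 (0.415) were intermediate.

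**Figure D3:**
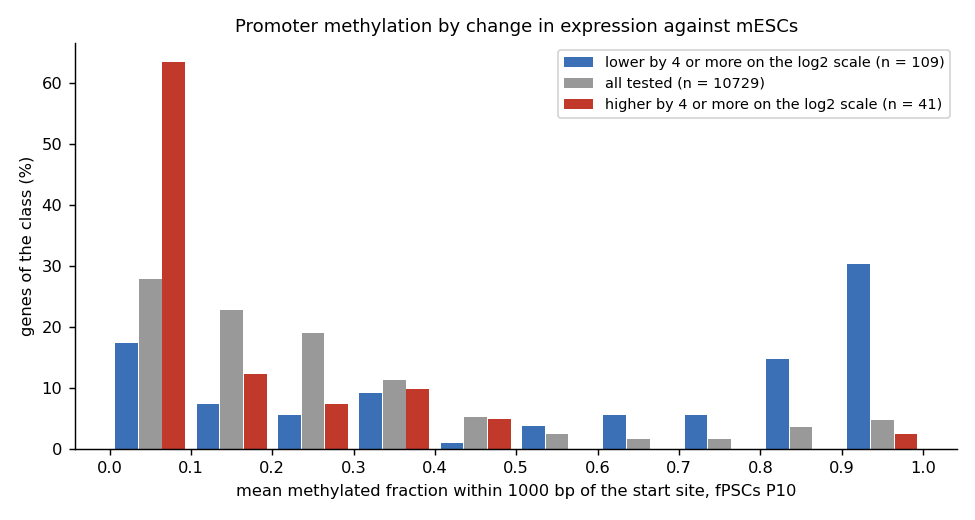
Mean methylated fraction within 1000 bp of the start site in fPSCs at P10 (x axis, bins of 0.1) and the share of genes in each bin (y axis, percent) for genes lower by 4 or more on the log2 scale against mESCs (n = 109), all genes tested (n = 10729) and genes higher by 4 or more (n = 41). Of the lower genes 59.6% lie at 0.5 or above, of the higher genes 2.44%.

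The 250 bases before the start site are shown for genes at the ends of this range, read from mm9, with each CpG, the site that can be methylated, in capitals. Dppa3 (chr6:122576178-122576427, plus strand) has 6 CpGs and a mean fraction of 0.942 over 4 windows, and Tdh (chr14:64127930-64128179, minus strand) has 6 and 0.92 over 2 windows. Fgf5 (chr5:98682953-98683202, plus strand) has 24 CpGs and 0.015 over 4 windows, and Dnmt3b (chr2:153474936-153475185, plus strand) has 21 and 0 over 2 windows. The choice of genes fixed this contrast. In its 250 bases Zfp42, which fell, has 9 CpGs and a fraction of 0 in the 1 window with a value, and Pim2, which rose, has 18 CpGs and no window with a value. Within 1000 bp of the start site, the measure used above, Zfp42 had 0.86 and Pim2 had 0.278, each over 11 windows.
Dppa3: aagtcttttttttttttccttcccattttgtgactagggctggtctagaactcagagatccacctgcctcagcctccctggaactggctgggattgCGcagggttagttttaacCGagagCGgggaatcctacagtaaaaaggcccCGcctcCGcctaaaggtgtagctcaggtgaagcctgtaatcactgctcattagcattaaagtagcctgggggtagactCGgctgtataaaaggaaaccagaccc
Tdh: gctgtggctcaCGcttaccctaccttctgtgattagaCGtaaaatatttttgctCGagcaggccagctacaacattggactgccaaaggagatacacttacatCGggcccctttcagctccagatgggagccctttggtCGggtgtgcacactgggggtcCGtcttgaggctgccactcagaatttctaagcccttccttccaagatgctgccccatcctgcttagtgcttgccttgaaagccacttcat
Fgf5: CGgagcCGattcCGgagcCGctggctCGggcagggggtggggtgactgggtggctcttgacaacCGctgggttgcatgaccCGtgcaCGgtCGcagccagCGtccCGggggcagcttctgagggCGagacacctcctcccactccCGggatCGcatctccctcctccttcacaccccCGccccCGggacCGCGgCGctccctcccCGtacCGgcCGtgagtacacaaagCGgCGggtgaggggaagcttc
Dnmt3b: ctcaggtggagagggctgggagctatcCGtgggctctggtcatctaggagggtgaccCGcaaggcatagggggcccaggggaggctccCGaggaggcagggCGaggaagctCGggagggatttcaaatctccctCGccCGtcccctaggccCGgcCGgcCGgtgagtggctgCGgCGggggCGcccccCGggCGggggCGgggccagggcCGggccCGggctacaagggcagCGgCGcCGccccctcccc

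Germline genes were nearly all silent in fPSCs. These genes serve meiosis and the protection of the germ line against transposons, and many are known targets of DNA methylation in somatic cells. Of 30 on the list 28 were in the table and 23 were tested, of which 20 were lower, 1 was higher and the median was -1.63. In the 12316 genes as a whole, 31.9% were lower. With a filter of 5 FPKM in place of 1 FPKM, 11 were lower and none was higher. The RNA-binding protein Dazl had 20.9 and 36.4 FPKM in mESCs and was listed at 0, 0 and 0 FPKM in fPSCs. Sohlh2, a germ cell transcription factor, had 26.2 and 21.8 FPKM in mESCs and 0, 0 and 0 FPKM in fPSCs, and Tex19.1 had 44.8 and 35 against 0.753, 0.449 and 0.698 FPKM. Rhox5, an X-linked homeobox gene, had 77.7 and 126 FPKM in mESCs and 0.177, 0.795 and 0.618 FPKM in fPSCs (log2 fold change -6.05, SE 0.25, limma adjusted p = 1.15e-07).

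EpiLCs and fPSCs at P1 (1 library, in the same medium as later passages) expressed many of them, and the sum over the list was higher in EpiLCs than in mESCs. Mael, which acts in piRNA production, had 1.47 and 1.6 FPKM in mESCs, 18.7 and 26.3 FPKM in EpiLCs, 5.6 FPKM in fPSCs at P1 and was listed at 0, 0 and 0 FPKM at the 3 later passages. The RNA helicase Ddx4 had 5.9 and 6.66 FPKM in EpiLCs, 2.69 FPKM at P1 and 0.0223, 0 and 0 FPKM later. In the test of fPSCs against EpiLCs 21 of the 23 were lower and none was higher, with a median of -2.35, while 15.9% of all genes tested were lower. Tdrkh, the exception, had 1.02 and 0.0392 FPKM in mESCs and 3.69, 3.52 and 2.76 FPKM in fPSCs. Summed over the list, FPKM were 235 to 299 in mESCs, 366 to 399.8 in EpiLCs and 5.89 to 8.26 in fPSCs. At P10 the promoters of Ddx4 (0.939), Mael (0.966), Sycp3 (0.924), Taf7l (0.974) and Slc25a31 (0.954) had high methylated fractions, and Dazl had 0.667. Of these, Taf7l and Slc25a31 did not pass against mESCs. Fractions of the other genes of the list are not given here, so these values do not describe the list as a whole.

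Among ribosomal protein genes, 3 paralogs known from germ cells were also low in fPSCs. Rpl10l had 156 and 239.7 FPKM in mESCs and 0, 0 and 0 FPKM in fPSCs, Rpl39l had 51.7 and 66.6 against 0, 0 and 0 FPKM, and Rps4l had 658 and 657 against 16.9, 10.2 and 0.17 FPKM. They fell by 7.6, 5.90 and 6.74 on the log2 scale. Reads of such copies can be shared with related genes, which makes the level uncertain. They were picked here after their values were seen, from a list whose 82 tested genes were lower in 60 cases and higher in none (median -1.10). The lower genes are 73.2% of the list, against 31.9% of all genes tested. Rps28, a common subunit, had 891 and 1024 FPKM in mESCs and 146, 189 and 167 FPKM in fPSCs. The count of lower genes was 30 without mESCs replicate 2, when 28.5% of all genes tested were lower, and was 34 with no filter on low values.

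**Figure D4:**
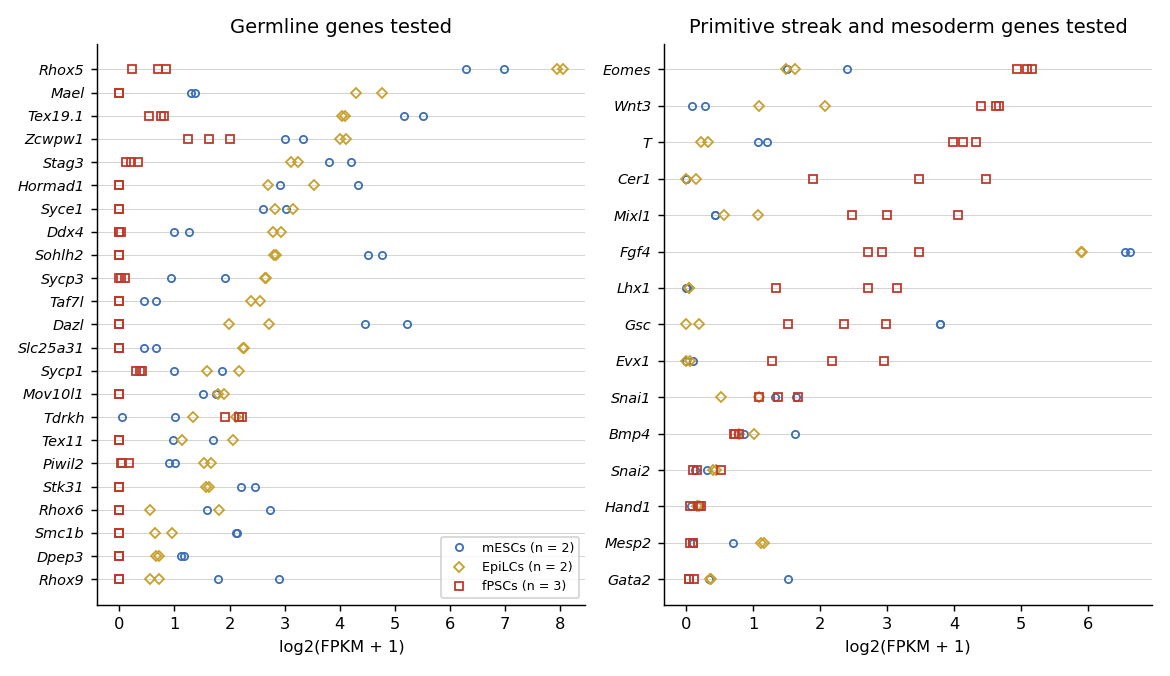
Level in each library, as log2(FPKM + 1), of the germline genes (left) and the primitive streak and mesoderm genes (right) that were tested, ordered by their mean in EpiLCs and in fPSCs. Circles are mESCs (n = 2), diamonds EpiLCs (n = 2) and squares fPSCs at P10, P20 and P30 (n = 3). For 22 of 23 germline genes, all but Tdrkh, every fPSC library lies below the other libraries drawn, and Eomes, Wnt3, T, Mixl1, Lhx1, Cer1 and Evx1 lie highest in fPSCs.

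A part of the primitive streak programme was expressed in fPSCs. The streak is the site where mesoderm and endoderm arise at gastrulation. Of 20 genes on the list 15 were tested, 7 were higher, 2 lower (Fgf4 and Gsc) and the median was 0.03. These are 46.7% and 13.3%, against 19.9% and 31.9% of all genes tested. Without mESCs replicate 2, 7 were higher, 5 were lower and the median was -0.024. The T-box factor Eomes had 4.3 and 1.84 FPKM in mESCs, 1.8 and 2.09 FPKM in EpiLCs and 29.6, 32.9 and 34.7 FPKM in fPSCs, a log2 fold change of 3.10 against mESCs (SE 0.26, limma adjusted p = 9.25e-06) and 3.50 against EpiLCs (limma adjusted p = 2.42e-05). T (Brachyury) had 1.31 and 1.1 FPKM in mESCs and 16.5, 14.7 and 19.09 FPKM in fPSCs. The ligand Wnt3 had 0.0636 and 0.215 FPKM in mESCs and 20.1, 24.4 and 23.6 FPKM in fPSCs. Mixl1, Lhx1, Cer1 and Evx1 rose by 2.75, 2.39, 3.28 and 2.09.

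In bulk RNA, fewer cells of a type and less RNA per cell cannot be told apart. Of later mesoderm genes, Mesp1, Tbx6, Msgn1, Kdr and Foxf1 were too low to be tested, and Bmp4 was under 1 FPKM in all 3 fPSC libraries and did not pass. Gsc had 12.8 and 12.7 FPKM in mESCs, 0.143 and 0 FPKM in EpiLCs and 6.9, 4.09 and 1.87 FPKM in fPSCs, lower than in mESCs (-1.50) and higher than in EpiLCs (2.19). Of the 15 genes of this list tested, 8 were higher in fPSCs than in EpiLCs and 2 lower. Among all genes tested 9.94% were higher and 15.9% lower, so the lower count is near the share of all genes.

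Targets of Wnt-β-catenin signalling went in both directions, 7 higher and 5 lower of 18 tested, with a median of 0.38. The higher genes are 38.9%, against 19.9% of all genes tested. The lower genes are 27.8%, near the 31.9% of all genes tested. Notum, a secreted Wnt inhibitor, had 33.7 and 34 FPKM in mESCs and 0, 0.028 and 0.111 FPKM in fPSCs, and Cdx1 had 13 and 5.75 against 0, 0 and 0 FPKM. Sp5 fell from 29 and 47 FPKM to 3.11, 2.26 and 2.09 FPKM, which was still above the 0.158 and 0.103 FPKM of EpiLCs (1.62, limma adjusted p = 0.00255). Axin2, a direct target, had 23.2 and 16.3 FPKM in mESCs, 3.22 and 1.91 FPKM in EpiLCs and 12.2, 9.76 and 16.8 FPKM in fPSCs. Against mESCs it did not pass (-0.59, limma adjusted p = 0.0957) except when P30 was left out, and against EpiLCs it was 1.96 higher (limma adjusted p = 0.00105). Wnt8a had 0 and 0 FPKM in mESCs and 10.4, 14 and 24.2 FPKM in fPSCs, higher at each later passage. T, Fgf8, Lef1, Tcf7, Nkd1 and Sp8 made up the rest of the 7.

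Nodal and Activin targets were split as well, 7 higher and 6 lower of 15 (median 0.23, and near 0 without P30). Among all genes tested 19.9% were higher and 31.9% lower, against 46.7% and 40% here. Lefty1 and Lefty2, both inhibitors of Nodal, went opposite ways. Lefty1 had 22.2 and 16.1 FPKM in mESCs and 63.9, 73.4 and 53.8 FPKM in fPSCs (log2 fold change 1.69, limma adjusted p = 7.54e-04), and Lefty2 had 55.8 and 22.3 against 1.29, 2.97 and 2.81 FPKM (-3.48, limma adjusted p = 8.95e-05). Nodal itself did not pass, at 35.6 and 30.6 FPKM in mESCs and 26.8, 40.5 and 54.6 FPKM in fPSCs. Gdf3, a TGF-β family ligand, had 40.3 and 45.9 FPKM in mESCs, 29.1 and 35.9 FPKM in EpiLCs and 0.127, 1.05 and 0.519 FPKM in fPSCs. The co-receptor Tdgf1 (Cripto) fell by 1.62, and the cofactor Foxh1 rose by 2.14.

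Core pluripotency genes were not uniform, with 6 higher and 5 lower of 14 and a median of 0.22. These are 42.9% and 35.7%, against 19.9% and 31.9% of all genes tested. Pou5f1 (Oct4) had 760.2 and 764 FPKM in mESCs and 493, 462 and 499 FPKM in fPSCs, a log2 fold change of -0.65 (SE 0.24, limma adjusted p = 0.044), and the call was lost in 9 of the 13 alternatives. Sox2 had 218 and 210.1 FPKM in mESCs and 26.6, 25 and 25.7 FPKM in fPSCs (-3.01, limma adjusted p = 3.84e-07). The RNA-binding protein Lin28a, which blocks let-7 maturation, had 19.8 and 17.4 FPKM in mESCs and 346, 331 and 348 FPKM in fPSCs (4.13). Dppa4 and Dppa2, chromatin proteins that bind developmental promoters, were low in fPSCs. Dppa4 had 28 and 24.3 FPKM in mESCs, 45.4 and 75.6 FPKM in EpiLCs and 0.22, 0.115 and 0.285 FPKM in fPSCs. Dppa2 had 12.5 and 8.49 FPKM in mESCs, 84.4 and 46.1 FPKM in EpiLCs and 0.737, 1.25 and 1.54 FPKM in fPSCs. Both were still expressed at P1 (29.1 and 28.8 FPKM), and lower in fPSCs than in EpiLCs by 5.63 and 4.88.

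Within the DNA methylation machinery 3 of 16 genes were higher and 4 lower, with a median of -0.24. These shares are near those of all genes tested (19.9% and 31.9%). Dnmt1, which maintains methylation, had 68.7 and 52.3 FPKM in mESCs and 48.3, 51.1 and 46.1 FPKM in fPSCs and did not pass (-0.30). Dnmt3l, the catalytically inactive partner of the de novo enzymes, had 17.5 and 4.18 FPKM in mESCs, 71.6 and 40.6 FPKM in EpiLCs and 0.0276, 0 and 0.00912 FPKM in fPSCs (-3.27 against mESCs, limma adjusted p = 2.25e-04). Tet2 had 7.39 and 4.25 FPKM in mESCs and 0.248, 0.113 and 0.328 FPKM in fPSCs, and Tet3 rose by 1.95.

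The epithelial programme changed its members. Of 25 genes tested 15 were higher and 8 lower, with a median of 1.62. The higher genes are 60%, against 19.9% of all genes tested, and the lower genes are 32%, near the 31.9% of all. Cdh1 (E-cadherin) had 184 and 133 FPKM in mESCs and 198, 175 and 185 FPKM in fPSCs and did not pass (0.25). Epcam had 11.4 and 14.7 FPKM in mESCs and 117, 129 and 112 FPKM in fPSCs, and the tricellular junction protein Lsr had 7.09 and 4.24 against 112, 119 and 110.1 FPKM. Claudins, the strand proteins of tight junctions, moved both ways. Cldn4 had 69.4 and 67.9 FPKM in mESCs and 2.8, 2.17 and 2.71 FPKM in fPSCs (-4.29), while Cldn6 and Cldn7 rose by 4.28 and 3.17. The keratins Krt18 and Krt8 rose by 4.04 and 1.71, and Krt19 was lower (-1.15). Elf3, an epithelial ETS factor, had 116 and 88.1 FPKM in mESCs and 5.09, 4.68 and 4.41 FPKM in fPSCs.

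Genes of the apical surface and lumen moved less, with 6 higher and 3 lower of 19 and a median of 0.20. These are 31.6% and 15.8%, against 19.9% and 31.9% of all genes tested. Podxl (podocalyxin), the anti-adhesive coat of lumens, had 5.78 and 4.46 FPKM in mESCs and 20.1, 21.5 and 18.2 FPKM in fPSCs (log2 fold change 1.78, SE 0.17, limma adjusted p = 1.89e-05). Pard6b, Crb3 and Prom1 rose by 1.48, 1.95 and 1.91. Ezr (ezrin) did not pass (-0.44) except when mESCs replicate 2 was left out. Lama1, the laminin alpha chain of the embryonic basement membrane, had 23.4 and 18.3 FPKM in mESCs and 0.092, 0.078 and 0.119 FPKM in fPSCs, and Lamc1 fell by 1.45. fPSCs were grown in Matrigel, which is rich in laminin.

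Glycolysis genes were lower in 11 of 22 cases and higher in 2, with a median of -0.67, against 31.9% and 19.9% of all genes tested. With CMT P11 added 7 were lower, and without mESCs replicate 2 none was higher. Hexokinase Hk1 had 62.9 and 55.4 FPKM in mESCs and 2.35, 3.75 and 2.96 FPKM in fPSCs, and phosphofructokinase Pfkp had 128 and 61.8 against 2.76, 2.65 and 1.86 FPKM. Ldhb, a subunit of lactate dehydrogenase, had 328 and 546 FPKM in mESCs and 37.2, 35.6 and 38.1 FPKM in fPSCs, a log2 fold change of -3.48, while Ldha did not pass (-0.12). The glucose transporter Slc2a3 had 257 and 272 FPKM in mESCs and 40.8, 59.1 and 42.1 FPKM in fPSCs, and Slc2a1 did not pass (-0.30). The lactate carrier Slc16a3 had 31.8 and 35 FPKM in mESCs and 95.8, 279 and 64.3 FPKM in fPSCs, which spread widely.

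Subunits of the respiratory chain were lower in 41 of 78 cases and higher in 2, with a median of -0.80, against 31.9% lower among all genes tested. Cox7a1 had 45.7 and 36.8 FPKM in mESCs and 1.61, 1.37 and 2.33 FPKM in fPSCs, and Ndufa7, of complex I, had 111 and 116 against 23.3, 25.9 and 27.3 FPKM. Atp5g1, a subunit of the ATP synthase ring, was higher (0.87). The call for Atp5g1 was lost in 7 of the 13 alternatives. The count of lower subunits was 25 of 78 without mESCs replicate 2, when 28.5% of all genes tested were lower, and 26 with no filter on low values. Cholesterol synthesis genes rose in 14 of 25 cases and fell in 2 (median 0.67), against 19.9% higher among all genes tested. The count that fell was 1 or 0 in 8 of the 13 alternatives, and 0 without mESCs replicate 1.

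Histone genes of the replication-dependent clusters were lower in 27 of 36 cases (75%, against 31.9% of all genes tested) and higher in 1 (median -1.21). Hist1h2ap had 439 and 410.2 FPKM in mESCs and 2.61, 3.2 and 2.02 FPKM in fPSCs, and EpiLCs had 2.56 and 4.23 FPKM. Their mRNAs end without a poly(A) tail. Histone genes took 0.507% and 0.399% of the summed FPKM in mESCs, 0.00973% to 0.0123% in fPSCs and 0.0187% and 0.0219% in EpiLCs. They took 0.55% in the Epiblastoids of day 3, which is 1 library. Other RNAs without a poly(A) tail were lower in 5 of 7 cases, and the 7S RNA Rn7s1 had 391 and 1641 FPKM in mESCs, 2.66 and 6.39 FPKM in EpiLCs and 103, 134 and 105 FPKM in fPSCs. The part of RNA selection in these values was not tested. Small nucleolar and Cajal body RNAs were lower in 24 of 90 cases and higher in 5 (median -0.59). This is no larger share than the 31.9% of all genes tested. There were 50 lower without mESCs replicate 1, 8 without replicate 2, 10 with a filter of 5 FPKM and 14 with none.

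Imprinted genes, expressed from 1 parental copy, were higher in 15 of 27 cases and lower in 4, with a median of 1.01. These are 55.6% and 14.8%, against 19.9% and 31.9% of all genes tested. Paternally expressed Snrpn had 32 and 34.4 FPKM in mESCs and 202, 221 and 181 FPKM in fPSCs (log2 fold change 2.56, SE 0.15, limma adjusted p = 9.84e-07), Peg10 had 2.17 and 1.45 against 25.2, 28.8 and 19.6 FPKM, and Igf2 had 0.138 and 0 against 4.71, 6.79 and 6.25 FPKM. Mest had 10 and 6.0 FPKM in mESCs and 112, 86.3 and 44.2 FPKM in fPSCs, lower at each later passage. In the Dlk1-Meg3 cluster, paternally expressed Dlk1 rose by 2.30, and the maternal RNAs Meg3 and Mirg were lower. Rian, another maternal RNA of the cluster, did not pass, with 10.5 and 69.9 FPKM in mESCs and 51.2, 12.3 and 50.9 FPKM in fPSCs, which overlapped. Meg3 had 41.8 and 41.8 FPKM in mESCs, 30.2 and 41 FPKM in EpiLCs and 6.44, 10.6 and 9.73 FPKM in fPSCs (-2.14 against mESCs, limma adjusted p = 5.51e-05). Allelic expression was not measured.

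Markers of other cell types were mostly low. Of 15 genes of the 2-cell-like state 13 were in the table, none was tested and their FPKM summed to at most 2.72 in mESCs and 0.219 in fPSCs. For 22 fibroblast genes the sum was 111 to 183 FPKM in mESCs and 23.2 to 24.4 FPKM in fPSCs, most of it Fn1, which had 172 and 108 FPKM in mESCs and 6.44, 7.38 and 7.81 FPKM in fPSCs, while Postn, Prrx1 and Fap were at 0.04 FPKM or less in all 5 libraries. Trophoblast genes summed to 25.1 to 32.8 FPKM in mESCs and 34.1 to 37.7 FPKM in fPSCs, mainly Tfap2c in mESCs (23.4 and 19.4 FPKM) and Eomes in fPSCs, with Cdx2, Elf5, Gata3 and Tpbpa under 0.3 FPKM. Early neural genes were lower in 4 of 6 tested and higher in 1, Nes (1.31), and Pax6, Zic1 and Six3 were too low to be tested. Among all genes tested 31.9% were lower and 19.9% higher.

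The sum of endoderm genes was higher in fPSCs, and Foxa2 alone made up most of it at P10 and P30. Their sum was 2.16 to 6.03 FPKM in mESCs and 9.23 to 57.9 FPKM in fPSCs, and 3 of 8 tested were higher (Foxa2, Foxa1 and Gata6) and 1 lower (Trf). Among all genes tested 19.9% were higher and 31.9% lower. The count of higher genes was 6 without P30, 1 without mESCs replicate 2 and 1 with a filter of 5 FPKM or with none. Foxa2, a pioneer factor of endoderm, node and anterior streak, had 0 and 0.0404 FPKM in mESCs, 0.23 and 0.0915 FPKM in EpiLCs and 44.3, 20 and 5.24 FPKM at P10, P20 and P30 (log2 fold change 4.15, SE 0.63, limma adjusted p = 4.52e-04). Sox17 had 3.57, 3.49 and 0.265 FPKM in fPSCs and did not pass against mESCs (1.18, limma adjusted p = 0.0549). Afp, Ttr and Apob, genes of extraembryonic or liver endoderm, were under 0.2 FPKM in all libraries of both groups.

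The 3 passages were alike for most genes. The range of log2(FPKM + 1) over P10, P20 and P30 had a median of 0.27, and the median gap between passages was 0.15 to 0.18, against 0.24 between the mESC libraries. The range was 1 or more for 371 genes tested (3.01%). With 1 library per passage, no difference between passages was tested.

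The widest range at a mean of 10 FPKM or more was that of Trh, the precursor of thyrotropin-releasing hormone, with 252, 63.4 and 1.36 FPKM at P10, P20 and P30 (6.74 on the log2 scale) and 78.5 and 26.2 FPKM in mESCs. Igfbp2, a binding protein of insulin-like growth factors, had 16, 20.4 and 264 FPKM in fPSCs and 47.2 and 373 FPKM in mESCs, where the replicates also stood far apart. Hmgn2-ps1 (173, 130.1 and 7.85 FPKM), Foxa2, Ywhae (90.9, 564 and 540.2 FPKM) and Mta3 (33.8, 4.84 and 31.6 FPKM) followed. Wide gaps also stood between replicates of other groups: Hmgn2-ps1 had 82.1 and 3.27 FPKM in the 2 EpiLC libraries, Ywhae had 341 and 72.3 FPKM in the 2 mESC libraries, and Mta3 had 5.32 and 30.5 FPKM in the 2 libraries of EpiSCs (epiblast stem cells). Mta3 and Ywhae changed without a steady order over passages, and Hmgn2-ps1 is a pseudogene whose reads can come from its parent gene.

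Foxa2 was accompanied by other genes of the anterior streak and endoderm, named after their values were seen. Cer1, a secreted Nodal and BMP inhibitor, had 21.1, 10.2 and 2.73 FPKM at P10, P20 and P30, Lhx1 had 7.81, 5.53 and 1.54 FPKM and Sox17 had 3.57, 3.49 and 0.265 FPKM. All of them were highest at P10 and lowest at P30. T and Eomes did not share this order, with the highest value of both at P30. fPSCs at P1 had 0.0288 FPKM of Foxa2 and 0.0392 FPKM of Cer1, close to the mESC values.

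**Figure D5:**
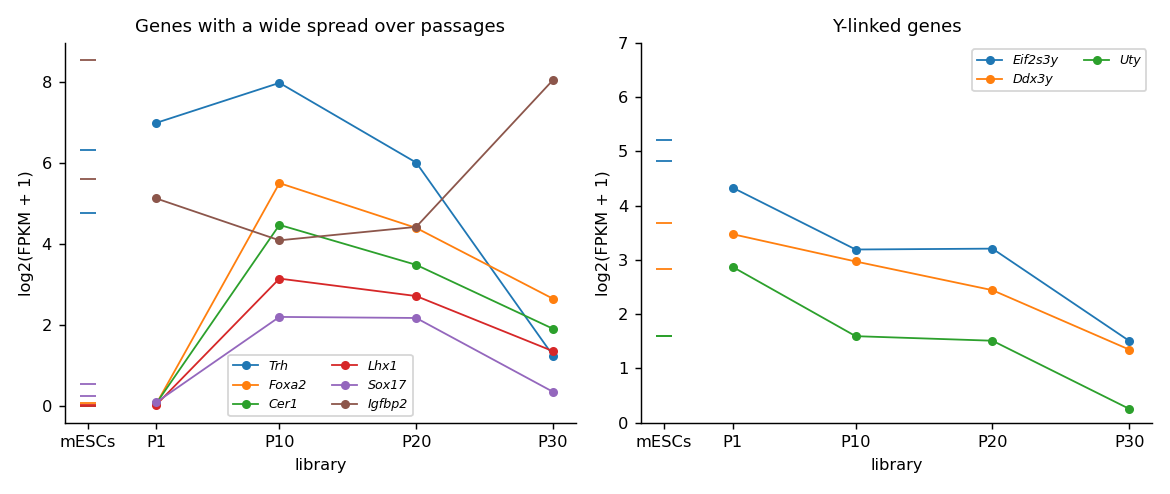
Level as log2(FPKM + 1) in fPSCs at P1, P10, P20 and P30 (1 library each, joined by lines), with the 2 mESC libraries as dashes at the left. Left, Trh, Foxa2, Cer1, Lhx1 and Sox17 run from a high at P10 to a low at P30, and Igfbp2 is highest at P30. Right, Eif2s3y, Ddx3y and Uty are lowest at P30.

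By chromosome, the median log2 fold change of the genes tested ran from -0.33 on chromosome 13 (387 genes) to 0.04 on chromosome X (417 genes) among chromosomes with more than 3 genes tested. Each fPSC library gave the lowest such median for chromosome 13 (-0.27, -0.29 and -0.39 at P10, P20 and P30), where chromosome 8 shared -0.27 at P10. Chromosome 13 had the lowest and X the highest group median among these chromosomes under both other scalings too, at -0.19 and 0.14 with upper-quartile scaling. Most of the 36 replication-dependent histone genes tested, of which 27 were lower, lie on chromosome 13. They were kept in its median under every scaling, and their part in it was not tested. Chromosome Y had 3 tested genes, with medians of -0.29, -0.82 and -1.91 at P10, P20 and P30. The translation factor gene Eif2s3y had 27.4 and 35.8 FPKM in mESCs, 19.12 FPKM at P1 and 8.13, 8.24 and 1.85 FPKM at P10, P20 and P30 (log2 fold change -2.38, SE 0.47, limma adjusted p = 0.00196). Ddx3y had 6.16 and 11.8 FPKM in mESCs, 10.1 FPKM at P1 and 6.84, 4.44 and 1.55 FPKM later, and Uty had 2.03 and 2.03 FPKM in mESCs, 6.32 FPKM at P1 and 2.02, 1.85 and 0.195 FPKM later. Neither passed against mESCs (-1.01 and -0.48), except Ddx3y when P10 was left out, and all 3 were lowest at P30. These genes were named after their values were seen.

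The most abundant transcripts were largely shared. Of the 10 genes with the highest mean FPKM in each group, 6 were common to both, namely Eef1a1, Rplp1, Hsp90ab1, Rpl8, Yam1 and Rps2. Dppa5a was among the 10 of mESCs. Among the 10 of fPSCs but not of mESCs were the actin gene Actg1 (739 and 729 FPKM in mESCs and 1973, 1831 and 1527 FPKM in fPSCs, log2 fold change 1.27), the actin-severing protein gene Cfl1 (1.40), Gapdh and Ptma. Eef1a1 had 5999 and 5619.9 FPKM in mESCs and 4290.3, 3956 and 3569 FPKM in fPSCs and did not pass (-0.56, limma adjusted p = 0.1).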

How the data were processed

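RNA-seq libraries were made by the study from cells in culture. Per the labels and the study's methods, reads were trimmed with cutadapt 1.11, mapped with TopHat2 2.1.1 to mouse cDNA of mm9 and quantified with Cufflinks 2.1.1, and the authors deposited 1 table of FPKM per gene. FPKM carry no read counts, so no count model was used and the precision that depth gives is unknown. Of 23608 entries, 4 with duplicated names were dropped. Genes that reached 1 FPKM in 2 or more of 9 libraries (mESCs, EpiLCs, EpiSCs and fPSCs at P10, P20 and P30) were kept, and log2(FPKM + 1) was fitted with limma 3.58.1 in R 4.3.3 (trend option, 5 residual degrees of freedom, Benjamini-Hochberg adjustment). Fold changes are on this scale, which understates changes of low genes. A call needed an adjusted p under 0.05 and a fold of at least 1.5. On data simulated for fPSCs against mESCs (12316 genes, 200 changed), 43.5%, 85.5% and 91.5% of changes of 1, 1.5 and 2 on the log2 scale were called. Of the unchanged genes 5, 8 and 11 were called. Far fewer genes changed there than the 51.8% called in the data, so these rates need not hold for the real comparison.

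For fPSCs at P10, the authors deposited H3K4me3 and H3K27me3 signal (STAR ChIP-seq, Trim Galore, Bowtie2 2.2.2) as RPKM in 100 bp bins and the methylated fraction in 100 bp windows (BS-Seeker2). Both are on mm9, and whether 1 or both replicates are in a file is not given in the sources used here. Means were taken within 1000 bp of the start site in the mm9 gene annotation, with at least 3 windows for methylation. CpGs were counted within 500 bp.

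Named genes were the 12 largest rises and falls past the threshold with a group mean of at least 10 FPKM, the 3 markers, list genes, the 6 genes that spread most over passages at 10 FPKM or more and the 10 most abundant in each group. Exceptions are marked. The groups compared, gene lists and named genes were chosen with earlier results of these data known. Alternatives were a pseudocount of 0.1, no filter or 5 FPKM, upper-quartile scaling, rescaling without ribosomal protein, histone and untailed RNA genes, a fit of the compared libraries only, no trend, CMT P11 added to the fPSCs, and each library of the compared groups left out.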

Additional observations from a re-analysis of the deposited data

How the results depend on the processing

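The counts of genes higher and lower in fPSCs than in mESCs stayed within 1.5 times of the main ones (2449 and 3933) under all 13 alternatives, from 1933 to 2898 higher and from 2755 to 4115 lower. Leaving out 1 library gave 2117 to 2466 higher and 3506 to 3769 lower. Against EpiLCs, adding CMT P11 to the fPSCs lowered the count from 3178 to 1997 genes (806 higher and 1191 lower). This library, of a cryopreserved passage, was deposited later, and the cause was not tested. Leaving out 1 library gave 2273 to 3400 genes against EpiLCs, of which 962 to 1193 were higher and 1302 to 2207 lower. The lowest, 1302, was without EpiLCs replicate 2. Of 138 genes that the text names and that passed against mESCs, 124 kept direction and call under every alternative, the exceptions being Atp5g1, Fos, Foxa1, Gata6, Hmgn2-ps1, Ier3, Krt19, Mirg, Pou5f1, Rpl23a, Rplp1, Sall4, Slc16a3 and Tcf7, whose call was lost in 1 to 9 of them. Leaving out mESCs replicate 1 ended the call of Ier3, Gata6, Slc16a3, Foxa1, Hmgn2-ps1, Fos, Atp5g1, Pou5f1 and Rpl23a, and leaving out mESCs replicate 2 that of Krt19, Tcf7, Rplp1, Gata6, Slc16a3, Foxa1, Hmgn2-ps1, Atp5g1, Pou5f1 and Rpl23a. Of these, Foxa1, Hmgn2-ps1, Atp5g1, Pou5f1 and Rpl23a also lost it without P10 and without P20, and Atp5g1, Pou5f1, Rpl23a and Fos without P30, Fos also without P20. Genes that passed only under alternatives were Igfbp2, Axin2, Epha2 and Sox17 without P30 (Sox17 also under both other scalings), Ywhae and Ddx3y without P10, Ezr and Bmp4 without mESCs replicate 2, and Slc25a31 and Taf7l without mESCs replicate 1 or with a pseudocount of 0.1. Among genes that did not pass, the sign of the log2 fold change turned for 8. When 1 library was left out, values ran from -1.92 to 1.46 for Trh, from -1.10 to 1.52 for Rian, from -0.17 to 2.05 for Ywhae, from -0.0019 to 0.50 for Nodal, from -0.36 to 0.019 for Hsp90ab1, from -0.40 to 0.48 for Yam1 and from -0.39 to 0.15 for Ldha. With CMT P11 added, Trh had 0.14, Rps2 0.057 and Ldha 0.23. Upper-quartile scaling gave 0.12 for Yam1, 0.016 for Rps2 and 0.044 for Ldha, and rescaling gave 0.084 for Yam1 and 0.0081 for Ldha. No paired analysis was possible because the mESC libraries carry replicate numbers and the fPSC libraries carry passages. With read depth unknown, differences of genes near 1 FPKM are the least certain.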

Other observations

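Libraries outside the comparison gave values for genes that varied over passages, without a test since each is 1 library. The library CMT P11, of the same line by its label but deposited later, had 31.9 FPKM of Foxa2, 46.2 FPKM of Cer1, 13.1 FPKM of Sox17 and 13.6 FPKM of Lhx1, nearer to P10 than to P30. fPSCs of the 46C line at P24 had 81.9 FPKM of Foxa2 and 203 FPKM of Cer1, those of the BVSC line at P14 had 30.8 and 16.2 FPKM, and those of the ROSAmTmG line at P12 had 9.43 and 2.23 FPKM. Epiblastoids of day 4 had 52.8 FPKM of Foxa2 and 295 FPKM of Cer1, where those of day 3 had 0.558 and 0 FPKM.

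Meg3, the maternal noncoding RNA of the Dlk1-Meg3 cluster, was low at P10, P20 and P30 (6.44, 10.6 and 9.73 FPKM), at 16.1 FPKM at P1 and at 42.4 FPKM in CMT P11. The other lines ranged from 2.35 FPKM (46C) to 56.5 FPKM (ROSAmTmG), and the 6 libraries of mESCs, EpiLCs and EpiSCs ranged from 28.97 to 41.8 FPKM. Mirg, a neighbouring RNA of the cluster, had 1.63, 1.99 and 2.73 FPKM at P10, P20 and P30 and 8.33 FPKM in CMT P11. Eif2s3y, on chromosome Y, had 21.5 FPKM in CMT P11 and 1.85 FPKM at P30.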
